A study of Mus musculus with 58 samples.

Results

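Transcript levels in the lungs of 5 mice given indeno(123,cd)pyrene (IP), a polycyclic aromatic hydrocarbon, at 50 mg/kg-bw/day were compared with those of 5 mice given the olive oil vehicle. The 10 arrays were taken by the tissue and dose in their labels from 20 lung arrays and 58 arrays in all. The animals were adult males, ~13 weeks old, of MutaTMMouse, a transgenic strain that carries a bacterial reporter gene for mutation in every tissue. They were housed individually, received olive oil or IP dissolved in olive oil by daily gavage for 28 consecutive days, and their tissues were collected 72 hours after the last dose. The lung arrays of 2 lower doses, 12.5 mg/kg-bw/day and 25 mg/kg-bw/day, with 5 mice each, entered the same statistical fit. The protocol in the labels and the methods give 4 vehicle mice, whereas the labels number 5 in lung, and all 5 were used.

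Polycyclic aromatic hydrocarbons of this kind bind the aryl hydrocarbon receptor (AhR), a cytosolic transcription factor held by chaperones. The activated receptor pairs with Arnt and binds DNA at sites with the core GCGTG, where it induces cytochrome P450 enzymes and its own repressor. These enzymes turn such hydrocarbons into reactive epoxides, which can form DNA adducts. DNA damage activates the transcription factor p53, which induces genes of cell cycle arrest, apoptosis and repair.

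Each array held Cy5-labelled lung RNA of 1 mouse and a Cy3-labelled universal reference RNA pooled from 11 mouse cell lines. Values are the log2 of lung over reference, called the log2 ratio below, so that levels are compared between mice for 1 gene and not between genes. Mice 1 to 5 received vehicle and mice 16 to 20 received 50 mg/kg-bw/day. The arrays lay on 5 slides, each with 1 mouse of each dose, and vehicle mice 1, 2, 3, 5 and 4 shared slides 1 to 5 with mice 16, 17, 18, 19 and 20. Each dose always occupied the same position on the slide, so that position and dose cannot be told apart. Slide 3 was brighter, with 83.8 to 90.7% of probes well above background in Cy5 on its 4 arrays against 53.0 to 70.4% on the other 16. Counts are therefore also given without it. The lung label was borne out by Sftpc, the surfactant protein C gene of alveolar type 2 cells, whose log2 ratio was between 6.78 and 8.47 in the 10 mice.

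A probe was called when the limma adjusted p was at most 0.05 and the change at least 1.5-fold. Of 55681 probes, 44 were called, which is 0.079%, with 33 higher (0.0593%) and 11 lower (0.0198%) at 50 mg/kg-bw/day. They named 32 genes, 24 higher and 8 lower, and 10 of the called probes had no gene name. With slide as a block in the fit 155 probes (0.278%) were called, 89 higher (0.16%) and 66 lower (0.119%), and these included all 44. In 38 of the 44 the 5 treated mice did not overlap the 5 vehicle mice, against 1.94% of all probes, and 43 of 44 differed in 1 direction on all 5 slides, against 13.3% of all probes. The 44 were called on these same mice, so both shares describe the calls and are no separate support for them. For a probe without overlap the exact permutation test gave a two-sided p of 0.00794, the smallest that the 252 splits of 5 against 5 mice allow. The count was 26 without slide 3, and 92 without slide 3 with slide as a block.

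The 4 groups of genes described first were genes induced through AhR, genes of mitosis and DNA replication, targets of p53, and heat shock chaperones. Short promoter stretches are shown for some members of these groups that were called, or, in the case of Cyp1a1, called with slide as a block only. Short sequences known for these families are marked, and sites farther from the start are not shown. The stretches are the 120 bases before the transcription start of RefSeq (GRCm38.p6), read on the strand of the gene. Capitals mark GCGTG or its complement in the 3 AhR-induced genes, and GAANNTTC, the heat shock element core, in Hspa1a. In the 2 mitotic genes they mark CCAAT and TTTGAA or their complements, and the Spc25 stretch holds only CCAAT.
Cyp1a1 (chr9:57697493-57697612, + strand): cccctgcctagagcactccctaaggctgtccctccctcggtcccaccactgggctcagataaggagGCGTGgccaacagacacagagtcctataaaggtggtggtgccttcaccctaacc
Cyp1b1 (chr17:79715062-79715181, - strand): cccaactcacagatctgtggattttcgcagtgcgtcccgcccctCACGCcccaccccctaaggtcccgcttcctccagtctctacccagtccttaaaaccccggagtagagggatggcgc
Ahrr (chr13:74292332-74292451, - strand): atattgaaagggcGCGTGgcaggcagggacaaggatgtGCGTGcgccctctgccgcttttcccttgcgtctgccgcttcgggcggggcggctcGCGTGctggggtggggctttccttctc
Cdc20 (chr4:118437344-118437463, - strand): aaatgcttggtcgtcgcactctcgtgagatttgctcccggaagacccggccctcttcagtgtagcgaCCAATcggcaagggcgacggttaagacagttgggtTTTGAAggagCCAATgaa
Spc25 (chr2:69206214-69206333, - strand): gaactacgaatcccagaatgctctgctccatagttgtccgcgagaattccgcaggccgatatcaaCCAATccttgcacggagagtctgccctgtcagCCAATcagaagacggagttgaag
Hspa1a (chr17:34972157-34972276, - strand): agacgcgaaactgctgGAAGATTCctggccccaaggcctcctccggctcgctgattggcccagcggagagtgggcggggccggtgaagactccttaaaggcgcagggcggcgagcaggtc

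These letters were searched on both strands in 300 bases around each start, 250 before and 50 after it, taking the first start listed for a gene. GCGTG lay in 4 of 8 matched AhR-induced genes (50%) and in 32.5% of 27025 promoters, but also in 22 of 37 matched genes of mitosis (59.5%). TTTGAA lay in 27 of the genes of mitosis (73%) against 18.1% of all promoters, and CCAAT in 29 (78.4%) against 37.9%. GAANNTTC lay in 7 of 14 chaperone genes (50%) against 7.95%. Among the called genes the shares with GCGTG were 52.6% of 19 higher and 42.9% of 7 lower genes. CCAAT lay in 5 of the higher genes (26.3%) and 2 of the lower genes (28.6%), both below its share of all promoters. The counts were 5 (26.3%) and 1 (14.3%) for TTTGAA, and 1 (5.26%) and 1 (14.3%) for GAANNTTC. The longer TNGCGTG lay in 2 of 19 higher and 0 of 7 lower genes (5.12% of all promoters). The E-box CACGTG of clock factors lay in 1 of 19 higher and 0 of 7 lower genes (7.24% of all promoters). The matches describe these windows, and binding was not measured.

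Genes induced through AhR held the largest increases. Of 10 measured members, 2 were called higher and 0 lower, 3 and 0 with slide as a block, against 0.115% and 0.035% of all 20018 genes (0.34% and 0.195% with the block). For these shares and for the lists each gene is represented by its brightest probe. The lists were written by hand with earlier results of these data known. Their counts therefore describe the calls and are no separate support for them. In all, 0.15% of genes were called, 0.535% with the block, and 3.3% had no overlap of the mice, 2.38% higher and 0.919% lower. Cyp1a1 encodes the cytochrome P450 best known for the oxidation of polycyclic aromatic hydrocarbons. Its log2 ratio was 4.08, 2.11, 1.95, 0.73 and 0.88 in vehicle mice 1 to 5 and 7.95, 5.86, 7.33, 4.14 and 5.65 in mice 16 to 20. Every treated mouse lay above every vehicle mouse, although mouse 19 exceeded vehicle mouse 1 only narrowly. The log2 fold change was 4.24 ± 0.98, or 18.9-fold, with a limma adjusted p of 0.0837, and 0.00282 with slide as a block. Within slides the difference was 3.26 to 5.37, and slide 1 held both the highest vehicle mouse and the highest treated mouse.

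Cyp1b1, a related P450 that also oxidizes these hydrocarbons and estradiol, stood at −2.04, −2.48, −1.74, −1.88 and −1.76 in the vehicle mice and at 0.56, 0.52, 3.24, 0.78 and 3.22 in the treated mice. Mice 18 and 20 lay far above the other treated mice, which were close to each other, and all 5 were above the vehicle range. On average the log2 fold change was 3.64 ± 0.45 (12.5-fold, limma adjusted p = 0.00145). Ahrr encodes the AhR repressor, which competes for Arnt, and its log2 ratio went from −0.83, −0.54, −0.25, −0.65 and −0.54 in vehicle mice to 1.59, 0.94, 2.49, 1.77 and 2.89 in treated mice. The log2 fold change was 2.50 ± 0.28 (limma adjusted p = 0.000359), and mice 18 and 20 were again the highest. Its spot was well above background in 3 of 5 vehicle and 5 of 5 treated mice. A second Ahrr probe gave 0.35 (limma adjusted p = 0.148), but was well above background in 0 of 5 vehicle and 1 of 5 treated mice.

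The other 7 members were not called in either fit. Nqo1, a quinone reductase induced by AhR and by NRF2, had a log2 fold change of 0.46 ± 0.20 (limma adjusted p = 0.492) and was higher on all 5 slides, by 0.17 to 0.82. Tiparp, an ADP-ribosyltransferase that feeds back on AhR, gave 0.07 ± 0.10, and Aldh3a1, an aldehyde dehydrogenase, gave −0.25 ± 0.20. Cyp1a2, the P450 that accompanies Cyp1a1 in liver, was well above background in 1 of 5 mice of either group and gave 0.05 ± 0.08. The median of the list was 0.09 against 0.01 over all genes. Ahr itself gave −0.04 ± 0.16 and Arnt 0.07 ± 0.07. None of 6 members of the AhR complex and 0 of 12 NRF2-dependent genes was called in either fit. At an unadjusted limma p under 0.05 the counts were 0 higher and 1 lower, and 2 higher and 1 lower. The shares of all genes at this p were 8.09% higher and 4.61% lower. Ephx1, the microsomal epoxide hydrolase that acts on epoxides of aromatic hydrocarbons, had a log2 fold change of 0.41 without overlap of the groups. It is 1 of the 12 NRF2-dependent genes, of which 9 were lower, with a median of −0.04. Of 21 measured other xenobiotic-metabolizing enzymes, a list that also holds Ephx1, 12 were lower and the median was −0.03.

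**Figure D1:**
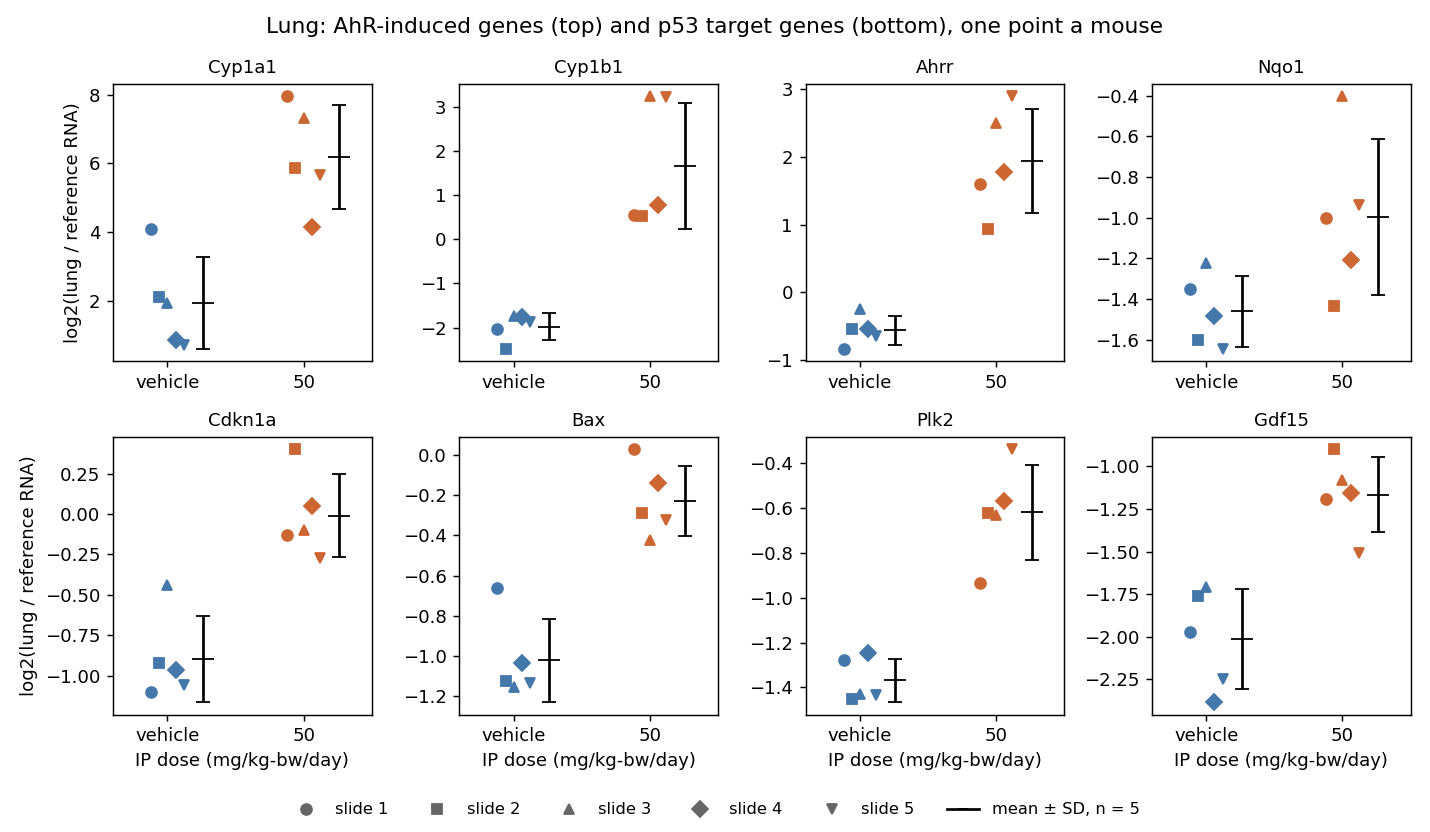
The log2 ratio of lung to reference RNA is plotted for each mouse, with vehicle in blue, 50 mg/kg-bw/day in orange, 1 symbol a slide, and the mean ± SD of 5 mice beside the points. In Cyp1a1, Cyp1b1, Ahrr, Bax, Plk2, Gdf15 and the called probe of Cdkn1a all treated mice lie above all vehicle mice, whereas the groups overlap in Nqo1.

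Genes of mitosis were higher at 50 mg/kg-bw/day. Of 46 measured members 43 had a positive log2 fold change, 7 were called higher and 0 lower, and 12 were called with slide as a block. At an unadjusted limma p under 0.05, 30 were higher and 1, Hmmr, was lower, against 8.09% and 4.61% of all genes (12.7% in both directions). The median of the list was 0.41 against 0.01 over all genes.

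Birc5 encodes survivin, a subunit of the chromosomal passenger complex, and its log2 ratio was −4.69, −4.75, −4.39, −4.56 and −4.68 in the vehicle mice and −3.56, −3.52, −3.35, −3.09 and −4.25 in the treated mice. Mouse 20 lay just above the vehicle range and the other 4 lay between −3.56 and −3.09, well above it. The log2 fold change was 1.06 ± 0.16 (limma adjusted p = 0.00751), although 2 other Birc5 probes gave 0.34 and 0.07 and were not called. Mki67, the proliferation marker Ki-67, stood at −4.17, −4.41, −4.11, −4.16 and −4.40 and −3.31, −3.22, −3.10, −2.81 and −3.98, and its log2 fold change was 0.96 ± 0.15 (limma adjusted p = 0.00956). Its other probe was also called, at 0.90 ± 0.18 (limma adjusted p = 0.0444). Mouse 20 was the lowest treated mouse at both probes and overlapped the vehicle mice at one of them.

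Cdc20, the activator of the anaphase-promoting complex, was at −3.21, −3.79, −3.39, −3.58 and −3.68 in vehicle mice and −2.76, −2.58, −2.71, −2.57 and −3.08 in treated mice. The groups did not overlap, and the log2 fold change was 0.79 ± 0.11 (limma adjusted p = 0.0021). Spc25, a subunit of the NDC80 complex that ties microtubules to kinetochores, had the largest change of the list, 1.16 ± 0.22 (limma adjusted p = 0.0288), with values of −4.02, −4.40, −3.77, −4.11 and −4.37 and −3.06, −2.76, −2.68, −2.43 and −3.97. Here mouse 20 lay inside the vehicle range and the other 4 treated mice above it. The same held for Ccna2, the cyclin of S phase and mitosis, with 0.97 ± 0.17 (limma adjusted p = 0.0173).

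Pimreg, a mitotic regulator, rose by 1.03 ± 0.18 (limma adjusted p = 0.0134), and Cenpe, a kinetochore motor, by 0.77 ± 0.14 (limma adjusted p = 0.0214). Outside the list, Iqgap3, a scaffold protein of proliferating cells, rose by 0.74 ± 0.11 (limma adjusted p = 0.00751). With slide as a block, Kif20a, Aspm, Nusap1, Pbk and Racgap1 were also called, with log2 fold changes between 0.61 and 0.91. They act in the spindle, in cytokinesis and in mitotic signalling.

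The mitosis score, the mean of the members minus the mean of the vehicle mice, was 0.32, 0.54, 0.73, 0.59 and 0.04 in mice 16 to 20. In vehicle mice 1 to 5 it was −0.05, −0.13, 0.38, −0.09 and −0.11. Vehicle mouse 3 stood above mice 16 and 20, and both mice of slide 3 were the highest of their group. On each slide the treated mouse was above its vehicle mouse. The median of the list without slide 3 was 0.42.

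Fewer genes of DNA replication were called. Of 32 measured members 0 were called higher or lower, and 1 was called higher with slide as a block (0.34% of all genes). At an unadjusted limma p under 0.05 there were 15 higher and 0 lower, against 8.09% and 4.61% of all genes. The median of the list was 0.21. The gene called with the block was Rrm2, the regulatory subunit of ribonucleotide reductase, with 0.76. Of the helicase subunits Mcm2 to Mcm7 the log2 fold changes lay between 0.21 and 0.52, and Pcna, the sliding clamp, gave −0.01. The replication score was highest in vehicle mouse 3 among the vehicle mice (0.36) and in mouse 18 among the treated mice (0.47), the mice of slide 3.

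Markers of B cells also had a positive median, 0.66, and 18 of 19 members were higher, but 0 were called, and 1 with slide as a block, Fcer2a, the low-affinity IgE receptor. At an unadjusted limma p under 0.05, 8 were higher and 0 lower, against 8.09% and 4.61% of all genes. Ms4a1 (CD20) had log2 ratios of 0.39, −1.27, −0.47, −0.41 and 0.35 in vehicle mice and 0.37, 0.40, 1.17, 0.99 and 0.79 in treated mice, and vehicle mouse 1 reached the lowest treated mice. In these bulk samples more cells of a type and more RNA per cell cannot be told apart. The B cell score was 0.35 to 0.84 in treated mice and −0.61 to 0.51 in vehicle mice. Its part in the rise of the mitotic genes was not tested. T cell markers had a median of 0.13, and markers of alveolar type 2, club and endothelial cells had medians of −0.01, 0.01 and 0.07.

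**Figure D2:**
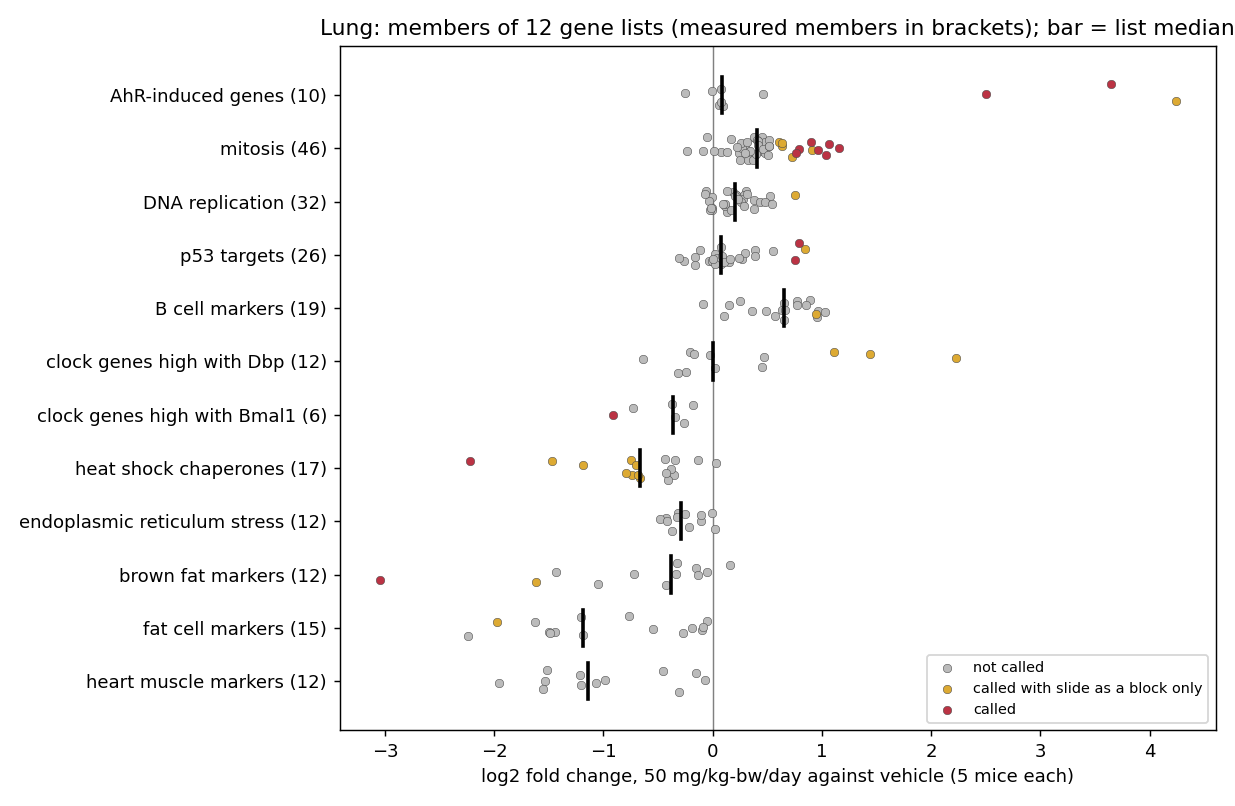
Each point is the log2 fold change of 1 gene at 50 mg/kg-bw/day against vehicle, in lists of genes given with the number measured, and black bars are list medians. Mitosis and B cell markers lie mostly above 0, heat shock chaperones and fat cell markers below 0, and the AhR-induced list holds 3 members above 2 with the rest near 0.

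Of 26 measured targets of p53, 2 were called higher and 0 lower, against 0.115% and 0.035% of all genes. With slide as a block 3 and 0 were called, against 0.34% and 0.195%. At an unadjusted limma p under 0.05, 7 were higher and 1 lower, against 8.09% and 4.61% of all genes, and the median was 0.08. Bax, the pore-forming protein of mitochondrial apoptosis, had log2 ratios of −0.66, −1.12, −1.15, −1.14 and −1.04 in vehicle mice and 0.03, −0.29, −0.42, −0.14 and −0.32 in treated mice. The groups did not overlap, and the difference within slides was narrow, 0.69 to 0.90. The log2 fold change was 0.79 ± 0.10 (limma adjusted p = 0.00148, and 4.57e-06 with slide as a block).

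Plk2, a kinase induced by p53 in G1, stood at −1.28, −1.45, −1.43, −1.43 and −1.25 and −0.93, −0.62, −0.63, −0.57 and −0.34, a log2 fold change of 0.75 ± 0.13 (limma adjusted p = 0.0134). Gdf15, a stress-induced cytokine, was called only with slide as a block, at 0.85 ± 0.19 (limma adjusted p = 0.0785, 0.00166 with the block), and its mice did not overlap. Cdkn1a encodes p21, the inhibitor of cyclin-dependent kinases, and 1 of its 2 probes was called. That probe read −1.10, −0.93, −0.44, −1.06 and −0.97 in vehicle mice and −0.13, 0.40, −0.10, 0.05 and −0.27 in treated mice, a log2 fold change of 0.89 ± 0.16 (limma adjusted p = 0.0233). Its brighter probe, which stands for the gene in the list, gave 0.27 ± 0.20 (limma adjusted p = 0.795) with overlapping groups.

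Phlda3, an inhibitor of Akt signalling, and Aen, an apoptotic nuclease, gave 0.56 and 0.39 without overlap of the mice but were not called. Mdm2, the ubiquitin ligase that limits p53, gave 0.02 ± 0.06, and Ccng1 gave 0.15. Perp, a membrane protein of desmosomes, was the member lower at an unadjusted p under 0.05, with −0.31. Of 20 genes of DNA repair and checkpoints and 18 of apoptosis, 0 were called in either fit. At an unadjusted limma p under 0.05 the counts were 4 higher and 1 lower, and 3 higher and 0 lower. The shares of all genes were 8.09% and 4.61%.

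Several called genes belong to no list. Ces2b, a carboxylesterase, was at 1.07, 1.14, 1.41, 1.21 and 1.40 in vehicle mice and 2.21, 1.72, 1.91, 2.40 and 1.74 in treated mice. The groups did not overlap, and the log2 fold change was 0.75 ± 0.13 (limma adjusted p = 0.0164). Its neighbours in the family Ces2e and Ces2c gave 0.90 ± 0.21 and 0.65 ± 0.21 (limma adjusted p = 0.082 and 0.267). Both were called with slide as a block only (limma adjusted p = 0.0151 and 0.00283 with the block), and the Ces2c groups overlapped. Another Ces2e probe gave 0.07, and other Ces2c probes gave 0.45 and 0.07, none of them called. The probes at 0.07 were well above background in 0 mice of either group. Whether a probe of this family also reads its similar copies was not tested. Ddah1, which degrades asymmetric methylarginines that inhibit nitric oxide synthase, rose at both of its probes, by 0.76 ± 0.13 and 0.68 ± 0.11 (limma adjusted p = 0.0175 and 0.013). At the first probe mouse 20 was the lowest treated mouse, with −0.30 against 0.19 to 0.32 in the other 4, and still above the vehicle mice. The other 9 named genes that were higher were Accs, Crlf2, Ecm1, Emilin2, Mrnip, Pisd-ps3, Pkn3, Tacc3 and Tipin, with log2 fold changes between 0.59 and 0.72. Tacc3 is a spindle protein and Tipin protects stalled replication forks.

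The probe with the smallest limma adjusted p, 9.75e-06, had no gene name and the transcript name ENSMUST00000066194 in the files. It rose by 1.36, and the treated mice did not overlap the vehicle mice. Neighbouring intervals on chromosome 2 were chosen here after their values were seen. Between chr2:127988295 and 128217972 of the array's build (mm9), 21 probes were named by interval and by R or F. The 16 whose name ends in R had log2 fold changes of 0.23 to 0.67, with 2 called, 5 called with slide as a block and 8 without overlap of the mice. The 5 ending in F lay between −0.10 and 0.21 and 0 were called. Probes that share an interval are not independent of each other.

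Heat shock chaperones were lower. Of 17 measured members, 16 had a negative log2 fold change. In the main fit 0 were called higher and 1 lower, against 0.115% and 0.035% of all genes. With slide as a block 9 were called lower, against 0.195% of all genes. At an unadjusted limma p under 0.05, 11 were lower and 0 higher, against 4.61% and 8.09% of all genes, and the median was −0.67. Hspa1a, the inducible HSP70, had log2 ratios of 3.21, 3.59, 0.82, 1.39 and 1.75 in vehicle mice and 0.15, −0.06, −0.20, −0.30 and 0.08 in treated mice. Vehicle mice 1 and 2 were far above the other vehicle mice, and the treated mice lay close together below all of them. This was a log2 fold change of −2.22 ± 0.42 (limma adjusted p = 0.0261). Hspa1b, a nearly identical copy, had no probe under its name, so that the signal may come from either gene.

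Hsph1, an HSP110 co-chaperone, was at 1.53, 2.81, 0.24, 0.17 and 0.71 and −0.17, 0.50, −1.22, −0.66 and −0.35, a log2 fold change of −1.47 ± 0.41 (limma adjusted p = 0.159, 0.0144 with slide as a block). Vehicle mouse 2 was the highest, and mouse 17, on the same slide, was the highest treated mouse and overlapped the vehicle mice. Dnaja1, an HSP40 co-chaperone, gave −1.19 ± 0.27 (0.00676 with the block) without overlap. Hspa8, the constitutive HSC70, gave −0.74 ± 0.23, Hsp90aa1 gave −0.67 ± 0.25 and Hspd1, the mitochondrial chaperonin HSP60, gave −0.75 ± 0.17, each called with slide as a block only. Chordc1, Stip1 and Cacybp, partners of HSP90 and of protein turnover, gave −0.80, −0.68 and −0.70 under the same rule. Cryab, a small heat shock protein of muscle, was the member that was not lower, with 0.03.

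The heat shock score was 0.29, 0.83, −0.49, −0.45 and −0.19 in vehicle mice 1 to 5 and between −0.91 and −0.36 in the treated mice. The treated mouse was lower than its vehicle mouse on all 5 slides, by amounts that were largest on slides 1 and 2. Genes of endoplasmic reticulum stress had a median of −0.29 with 11 of 12 members lower and 0 called in either fit. At an unadjusted limma p under 0.05, 7 were lower and 0 higher, against 4.61% and 8.09% of all genes. Xbp1 and Ddit3, a transcription factor of the unfolded protein response and the CHOP gene, gave −0.48 and −0.43 without overlap of the mice. Cirbp, which is induced by cold, gave 0.64 ± 0.23 with overlapping groups and was lowest in vehicle mice 1 and 2. Rbm3, the other cold-induced gene measured, gave 0.05 ± 0.20.

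Clock genes differed in the same mice. The clock runs on a loop in which Bmal1 (Arntl) and Clock drive the Per, Cry and Nr1d genes and Dbp, and Nr1d1 and Nr1d2 repress Bmal1 and Nfil3. Dbp, a factor of clock output, had log2 ratios of −3.20, −3.12, −0.96, −0.94 and −2.19 in vehicle mice and 0.06, 0.45, 0.41, −0.05 and 0.96 in treated mice. Vehicle mice 1 and 2 were the lowest, and all treated mice lay above all vehicle mice, with a log2 fold change of 2.44 ± 0.61 (limma adjusted p = 0.1, 0.0242 with slide as a block). Nr1d1 (REV-ERBα) stood at −0.71, −1.94, 0.41, 0.81 and 0.02 and 1.17, 1.15, 1.04, 0.89 and 1.56, a log2 fold change of 1.44 ± 0.40 (limma adjusted p = 0.162, 0.0323 with the block). Nr1d2 gave 1.11 ± 0.32 and was called under the same rule.

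Nfil3, a repressor that opposes Dbp, was called lower in both fits. Its log2 ratio was −0.66, −0.11, −1.0, −1.10 and −0.96 in vehicle mice and −1.53, −1.45, −1.90, −1.72 and −1.80 in treated mice, a log2 fold change of −0.91 ± 0.18 (limma adjusted p = 0.0317). Vehicle mouse 2 stood above the other vehicle mice, and the groups did not overlap. Arntl gave −0.73 ± 0.25 (limma adjusted p = 0.297), with vehicle mice 1 and 2 the highest. All 6 members of the list of genes high with Bmal1 were lower, with a median of −0.36. Of these, 0 were called higher and 1 lower, against 0.115% and 0.035% of all genes. Of the 12 genes high with Dbp, 3 were called higher and 0 lower with slide as a block, against 0.34% and 0.195% of all genes. In contrast, Per1, Per2 and Cry2 gave −0.64, −0.32 and −0.21, and the list median was −0.000585. The hour of tissue collection is not given in the sources used here. Its part in these genes, and in the heat shock genes that varied with the same vehicle mice, was not tested.

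**Figure D3:**
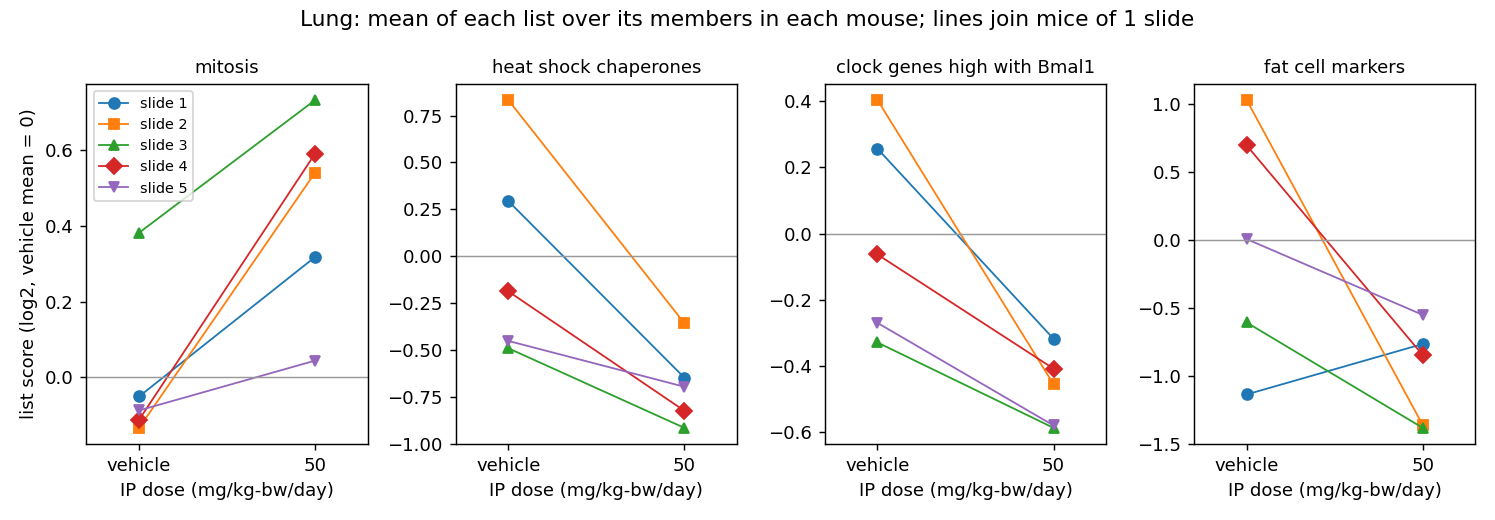
List scores (mean log2 ratio of the members, less the mean of the vehicle mice) are plotted by mouse for vehicle and 50 mg/kg-bw/day, and lines join the 2 mice of a slide. The treated mouse is higher in mitosis, and lower in heat shock chaperones and in clock genes high with Bmal1, on all 5 slides, while fat cell markers rise on slide 1 and fall on the other 4.

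The largest decrease was that of Ucp1, the uncoupling protein of brown fat, and it followed the mice less evenly. Its log2 ratio was −0.13, 3.91, 3.88, 4.73 and 3.30 in vehicle mice and 0.19, 0.29, −0.10, 0.10 and −0.04 in treated mice. Vehicle mouse 1 was as low as the treated mice, and the other 4 vehicle mice were more than 3 units above them. This gave a log2 fold change of −3.05 ± 0.54 (limma adjusted p = 0.0164), and without slide 3 the limma adjusted p was 0.111. Its spot was well above background in 4 of 5 vehicle and 2 of 5 treated mice. At the lower doses, 12.5 and 25, the log2 fold changes, which rest on the same vehicle mice, were −3.01 and −2.92.

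Other brown fat and fat cell markers were also lower. Of 12 brown fat markers 1 was called lower, Ucp1, and 2 with slide as a block, with a median of −0.38. The shares of all genes called lower were 0.035%, and 0.195% with the block. All 15 fat cell markers were lower, with 0 called, 1 called with slide as a block and a median of −1.18. Cidea, a lipid droplet protein, gave −1.62 ± 0.39, and Thrsp, which promotes fatty acid synthesis, gave −1.98 ± 0.41 (limma adjusted p = 0.097 and 0.0504). Both were called with slide as a block only (limma adjusted p = 0.0337 and 0.017 with the block). Fabp4, the fatty acid binding protein of adipocytes, was at 1.74, 6.54, 3.61, 4.34 and 5.46 in vehicle mice and 2.29, 1.56, 1.52, 2.31 and 2.78 in treated mice. Vehicle mouse 2 was the highest and vehicle mouse 1 was within the treated range, and the change of −2.24 ± 0.62 was not called (limma adjusted p = 0.16). Pdk4, the kinase that restrains pyruvate dehydrogenase when fat is burned, followed the same mice, with 0.39 in vehicle mouse 1 against 1.94 to 2.46 in the other vehicle mice and 0.12 to 1.02 in treated mice. The fat cell score was −1.13, 1.03, −0.60, 0.01 and 0.70 in vehicle mice 1 to 5 and between −1.38 and −0.55 in treated mice, and its part in the decrease of Ucp1 was not tested.

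Heart muscle and mesothelium varied as well. All 12 heart muscle markers were lower, with a median of −1.14 and 0 called in either fit, and 0 reached an unadjusted limma p under 0.05. The heart muscle myosin Myh6 was near 0 in mouse 18 (0.31) and between 4.94 and 7.10 in the other 9 mice. All 8 measured mesothelium markers were lower, with a median of −0.67 and 0 called in either fit. At an unadjusted p under 0.05, 3 were lower, against 4.61% of all genes. Aldh1a2, a retinoic acid synthase, was called lower with slide as a block, at −1.18 ± 0.37, with 3.47, 3.57, 3.71, 3.99 and 3.37 in vehicle mice and 3.04, 3.47, 2.44, 1.78 and 1.46 in treated mice. Mice 18, 19 and 20 held its lowest values, and mice 19 and 20 had mesothelium scores of −1.32 and −1.21 against −0.45 or more in the vehicle mice, whose part in the value of Aldh1a2 was not tested.

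**Figure D4:**
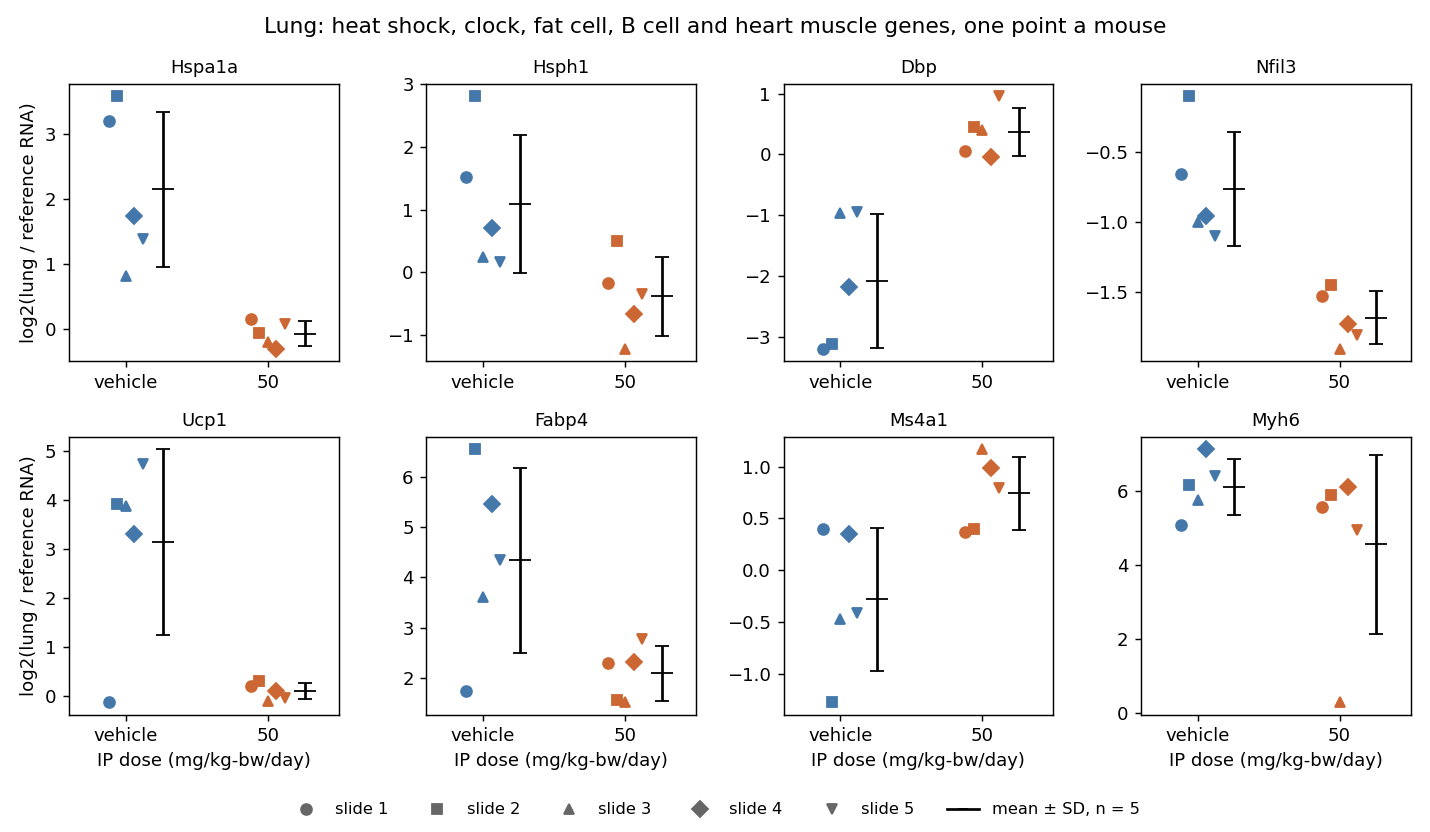
The log2 ratio of lung to reference RNA is plotted for each mouse, with vehicle in blue, 50 mg/kg-bw/day in orange, 1 symbol a slide, and the mean ± SD of 5 mice. Vehicle mice of slides 1 and 2 are the highest in Hspa1a and Hsph1 and the lowest in Dbp, vehicle mouse 1 of slide 1 lies with the treated mice in Ucp1 and Fabp4, and Myh6 is near 0 in the treated mouse of slide 3.

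Among the other called genes that were lower, Car14, a membrane carbonic anhydrase, was at 2.99, 2.38, 2.04, 1.77 and 2.73 in vehicle mice and 1.39, 0.74, 0.96, 1.19 and 0.46 in treated mice. The groups did not overlap, each slide showed the decrease (−1.65 to −1.08), and the log2 fold change was −1.44 ± 0.29 (limma adjusted p = 0.0378). Mfap2, a protein of elastic microfibrils, fell from 2.57, 2.62, 2.63, 2.73 and 2.53 to 2.26, 1.95, 1.76, 1.82 and 1.82, a log2 fold change of −0.69 ± 0.12 (limma adjusted p = 0.0157). The vehicle mice of Mfap2 lay close together, and mouse 16 was the highest treated mouse. Fibin, a secreted protein, gave −0.89 ± 0.14 (limma adjusted p = 0.0097) without overlap.

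Gpr141b, an orphan receptor, and Septin3, a cytoskeletal GTPase of neurons, fell towards background. The Gpr141b spot was well above background in 5 of 5 vehicle and 1 of 5 treated mice, and its log2 fold change was −0.82 ± 0.11 (limma adjusted p = 0.0021). The called Septin3 probe was well above background in 5 of 5 and 2 of 5 mice and gave −0.94 ± 0.12 (limma adjusted p = 0.00148). The brighter Septin3 probe gave 0.08 and was not called.

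Genes called with slide as a block only included some of the larger increases. Decreases under this rule included Unc93a2 (−1.36), Zdhhc22 (−1.34), Tmem45b (−1.32) and Wdr92 (−1.23), which are in none of the lists. Other probes of Unc93a2 gave 0.13 and −0.07, and another Wdr92 probe gave −0.01, none of them called. Tmem45b was well above background in 4 of 5 vehicle and 1 of 5 treated mice. Lama1, the laminin α1 chain of basement membranes, was at 2.76, 2.66, 1.36, 1.71 and 1.59 in vehicle mice and 3.69, 3.51, 4.10, 3.94 and 3.98 in treated mice. No mice overlapped, and the log2 fold change was 1.83 ± 0.41 (limma adjusted p = 0.0735, 0.0144 with the block). Mmp8, the collagenase of neutrophils, gave 1.04 ± 0.28 and rose by nearly the same amount on each slide, 0.88 to 1.16, although its groups overlapped. Neutrophil markers, Mmp8 among them, had a median of 0.20. At an unadjusted limma p under 0.05, 2 of 11 were higher and 0 lower, against 8.09% and 4.61% of all genes. Il1b, the inflammatory cytokine, gave 0.74 without overlap of the mice and was called with the block, while Nlrp3 gave −0.01. H2-Oa, which regulates peptide loading of MHC class II in B cells, gave 0.87 ± 0.28 (0.0476 with the block) without overlap.

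The called changes were set beside the lower doses, which share the vehicle mice. At 25 mg/kg-bw/day 7 probes were called against vehicle, 6 higher and 1 lower, and at 12.5 mg/kg-bw/day limma called 0, with 2184 probes at an unadjusted p under 0.05. From the lowest to the highest dose Cyp1a1 gave 0.27, 2.53 and 4.24, and Cyp1b1 gave 1.06, 1.52 and 3.64. Bax gave 0.39, 0.59 and 0.79, whereas Ces2b gave 0.41, 0.83 and 0.75. Of the mitotic genes, Mki67 gave −0.02, 0.14 and 0.96, Cenpe −0.01, 0.06 and 0.77, Pimreg 0.20, 0.34 and 1.03, and Kif20a 0.25, 0.34 and 0.91. Whether these groups of genes differed in their course over the doses was not tested. The median of the mitosis list was −0.000565, 0.04 and 0.41, that of DNA replication −0.03, 0.00223 and 0.21, and that of heat shock chaperones −0.24, −0.54 and −0.67. For the 26 targets of p53 it was 0.02, 0.08 and 0.08. Medians of some marker lists were also away from 0 at the lower doses. They were 0.43, 0.54 and 0.66 for B cells, and −0.67, −1.33 and −1.18 for fat cells. For heart muscle they were −1.19, −1.52 and −1.14, and for mesothelium −0.44, −0.85 and −0.67.

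The doses were also compared directly. Between 50 and 25 mg/kg-bw/day limma called 0 probes (0%), with 1651 at an unadjusted p under 0.05, and 4 with slide as a block (0.00718%), all higher at 50. The 4 were both probes of Mki67, Cenpe and Iqgap3 (limma adjusted p = 0.0437 for each), chosen by this test. Between 50 and 12.5 mg/kg-bw/day limma called 1 probe (0.0018%), Iqgap3, and 21 with slide as a block (0.0377%), all higher. These included Cyp1a1, Cyp1b1 and Ahrr, genes of mitosis or replication such as Birc5, Ccna2, Rrm2 and Tpx2, and Cdkn1a and Ddah1. The difference of Cyp1a1 between 50 and 25 mg/kg-bw/day was 1.71 and was not called in either fit (limma adjusted p = 0.675 with slide as a block).

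**Figure D5:**
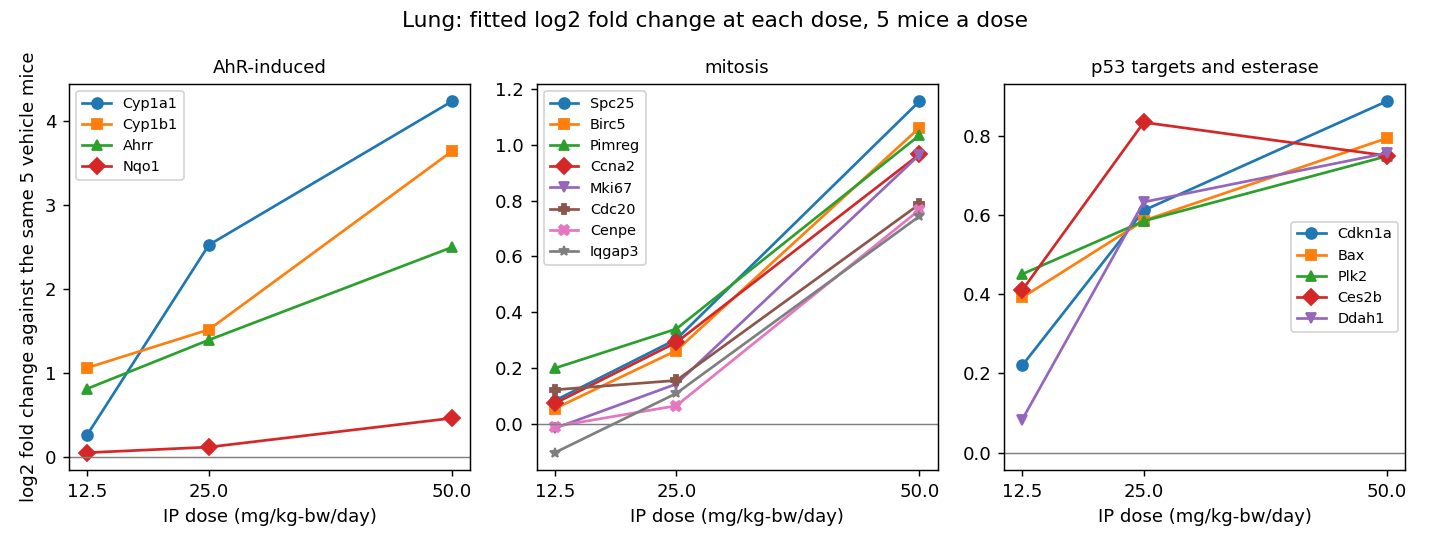
Log2 fold changes against the same 5 vehicle mice are plotted for each of the 3 doses (mg/kg-bw/day), with 5 mice a dose, for AhR-induced genes, mitotic genes with Iqgap3, and p53 targets with Ces2b and Ddah1. The mitotic genes are between −0.10 and 0.34 at both lower doses and between 0.74 and 1.16 at the highest. The p53 targets drawn, Bax, Plk2 and the called probe of Cdkn1a, are at 0.59 to 0.61 at 25 mg/kg-bw/day. These and the mitotic genes were drawn because they were called at the highest dose, and they do not stand for their whole lists.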

How the data were processed

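Lung RNA of 20 mice was hybridized as Cy5 against a Cy3 reference. The scanner intensity values (median pixel brightness of each spot) were made by the authors with Agilent Feature Extraction 10.7.3.1, without background correction. The same software wrote the deposited log10 ratios after background subtraction and dye normalization. The log2 ratios of the authors are LOWESS-normalized medians. The last 2 were used as alternatives.

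Log2(Cy5/Cy3) was formed from the medians, normalized by loess (span 0.3) within arrays, and averaged over the spots of each of 55681 probes, without outlier spots. R 4.3.3 was used with limma 3.58.1. The 4 dose groups were fitted together and p was adjusted by Benjamini-Hochberg. Errors of fold changes are standard errors. The slide entered as a fixed effect where named. The fits were also run on simulated data with independent noise for each probe and no slide effect. That run cannot test the slide block, because no slide differed in it. Of the probes, 26413 carried a gene name (20018 names), matched by accession to RefSeq, and probes without a match stayed unnamed. Array intensities give no read depth, and the number of mice limits the precision.

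Named genes are the 15 largest increases and the 8 decreases among called genes with all treated mice on 1 side of the vehicle mean. The 10 largest of each direction called with slide as a block only, and list members, were added. The 43 lists (22 of pathways, 21 of cell type markers) were written by hand. Members and lists were chosen with earlier results of these data known. Pathway and marker lists that the report does not describe had medians between −0.36 and 0.17. Alternatives are given in the closing section. Liver and forestomach arrays were not used here.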

Additional observations from a re-analysis of the deposited data

Results flagged for a closer look

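Among 140 groups of 5 mice for the named genes and 86 for the list scores, 7 and 6 held a mouse far from the other 4, by the gap to its neighbour against the range of the group. Chance alone flags about 1 in 20 such groups. Vehicle mouse 3 stood high in Cdkn1a (−0.44 against −1.10 to −0.93 in the other 4) and in Pbk (−3.32 against −3.84 to −3.74). It also stood high in the mitosis score (0.38 against −0.13 to −0.05). Vehicle mouse 1 was high in Bax (−0.66 against −1.15 to −1.04), low in Pdk4 (0.39 against 1.94 to 2.46) and low in the fatty acid oxidation score (−0.45 against 0.06 to 0.19). Vehicle mouse 5 was low in the mesothelium score (−0.45 against 0.01 to 0.16).

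Of the mice given 50 mg/kg-bw/day, mouse 20 was low in Ddah1 (−0.30 against 0.19 to 0.32) and in Tacc3 (−3.67 against −3.26 to −3.11). Mouse 16 was high in Gpr141b (0.33 against 0.05 to 0.08). Mouse 18 was high in the interferon-stimulated score (0.81 against −0.23 to 0.03) and in the plasma cell score (0.34 against 0.09 to 0.12), and low in the fibroblast score (−0.55 against −0.10 to −0.01). Vehicle mouse 3 and mouse 18 were the mice of slide 3, the brighter slide.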

How the results depend on the processing

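The count of 44 called probes fell to 5 with arrays centred on their median in place of loess (all 5 shared), 12 with Cy5 alone (8 shared), 3 with the scanner software log ratio (3 shared), 15 with the 2 groups fitted alone (12 shared) and 26 without slide 3 (24 shared). It rose to 155 with slide as a block, 189 with the 2 groups alone and slide as a block, and 92 without slide 3 with slide as a block. It was 111 with no limit on the fold change, 83 at an adjusted p of 0.10, and 1980 at an unadjusted p under 0.05 and 1.2-fold. Normexp, Aquantile, the authors' ratios, outlier spots kept, dim probes left out, trend and robust, array weights and the Fs statistic gave 36 to 56. With each mouse left out in turn it was 20 to 64, with the lowest without mouse 19 (20), mouse 18 (21), vehicle mouse 2 (27) and vehicle mouse 5 (29), and 31 without vehicle mouse 4. Of the 44 probes, 18 stayed at an adjusted p of 0.05 whichever of the 20 lung mice was left out. With slide as a block the 155 became 101 to 214 with each mouse left out in turn, and the lowest counts were those without mouse 17 (101) and mouse 18 (102). Probes without overlap of the mice fell from 1081 to 321 with median centring. Under the latter the 20018 genes had a median log2 fold change of 0.12, against 0.01 after loess. Measured from that value, the lists stood at 0.50 for mitosis, −0.49 for heat shock and 0.71 for B cells. Between 50 and 25 mg/kg-bw/day the count of 0 became 4 with slide as a block and ranged from 0 to 9 with 1 mouse left out (9 without mouse 20). Between 50 and 12.5 mg/kg-bw/day the count of 1 became 21 with slide as a block and 0 with median centring, and ranged from 0 to 14 with 1 mouse left out (14 without mouse 20, 0 without mouse 7, 10, 18 or 19). No named gene that was called reversed its direction. The cause of these differences was not tested. The alternatives without slide 3 were chosen after seeing the data. By mouse number no paired analysis was possible because vehicle and treated mice share no number in the labels, whereas the fits with slide as a block pair 1 vehicle and 1 treated mouse on each slide.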
